A study of Homo sapiens with 4 samples.

Results

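The nuclear genes of the mitochondrial respiratory chain were examined in 2 human osteosarcoma (OS) cell lines after knockdown of the circular RNA hsa_circ_0000073. Members were the probe sets with exactly 1 gene symbol that began with NDUFA, NDUFB, NDUFC, NDUFS, NDUFV or UQCR, was SDHA, SDHB, SDHC or SDHD, or began with COX, a digit from 4 to 8 and a letter from A to C. Pseudogenes and antisense symbols were left out, and each gene was represented by its brightest probe set. The rule found 66 genes among 33458 genes and 36176 probe sets with 1 symbol: 33 subunits of complex I, 8 complex I assembly factors (NDUFAF1 to NDUFAF8), 3 subunits of complex II, 8 of complex III, 13 of complex IV, and COX7A2L, a factor that joins complexes III and IV into supercomplexes. The genes were grouped by complex from general knowledge of the chain. SDHB, NDUFS1, NDUFS8, NDUFC2, UQCRFS1 and COX7C gave no row of 1 symbol and were not analysed here, and the subunits CYC1, COX4I1, COX4I2 and COXFA4 lie outside the rule.

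MG-63 and Saos-2 are established human OS lines, MG-63 fibroblast-like and Saos-2 more osteoblast-like. Total RNA of each line was put on 1 Affymetrix array after transfection of a non-targeting short hairpin RNA (sh-NC) and on another after transfection of sh-circ_0000073, which targets the back-splice junction of the circular RNA, so that 4 arrays covered 4 conditions with no replicate. The sample titles write si-NC and si-hsa_circ_0000073 for the same arms. The labels do not say whether the arrays came from separate cultures, give no genotype beyond the line and name no batch, and the level of hsa_circ_0000073 itself was not analysed here. Changes are differences in log2 signal within a line, the knockdown array minus its sh-NC array, and a gene was counted as higher or lower within a line when it was past 1.5-fold (0.58 on the log2 scale), with no p-value. In bulk RNA of this kind, a change in the share of some cells and a change in RNA per cell cannot be told apart.

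The respiratory chain carries electrons from NADH and succinate to oxygen in the inner mitochondrial membrane and pumps protons that drive ATP synthesis. Complex I oxidises NADH, complex II (succinate dehydrogenase) also belongs to the citric acid cycle, complex III passes electrons from ubiquinol to cytochrome c, and complex IV reduces oxygen. Most subunits are encoded in the nucleus, and some of complexes I, III and IV come from mitochondrial DNA. Many tumour lines, OS lines among them, grow on glycolysis while keeping a working chain.

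Respiratory chain transcripts were among the bright signals of all 4 arrays. In MG-63 the median log2 signal of the 66 genes was 11.32 with sh-NC and 11.54 with sh-circ_0000073. For Saos-2 these medians were 11.11 and 11.35, where the median over all probe sets of an array was 3.74 or 3.75. Of the 66 genes, 60 had a mean log2 signal of at least 6, against 12091 of the 36176 probe sets. The 3 brightest were NDUFB9, UQCRC2 and COX6A1, with mean log2 signals of 15.74, 15.53 and 15.42, and the 3 dimmest were COX6B2, COX7B2 and NDUFS7, at 3.04, 3.58 and 3.66, near the median of the arrays. The brightness of a probe set also depends on its probes, so these levels do not order the transcripts by abundance. NDUFS7, a core subunit of complex I with the last iron-sulfur cluster before ubiquinone, was the only dim gene that every respiring cell uses, and its signals of 3.80, 3.50, 3.60 and 3.72 (MG-63 with the control and then the knockdown hairpin, followed by Saos-2 in like manner, the order kept for all values that follow) lay at the median of the arrays. The other 5 genes under 6 (COX6A2, COX6B2, COX7A1, COX7B2 and COX8C) encode muscle or testis forms of complex IV subunits.

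The labelled lines were checked against marker genes. RUNX2, ALPL and IBSP, markers of the osteoblast lineage, were 8.82, 12.26 and 9.40 higher on the log2 scale in Saos-2 (limma, adjusted p of 1.2e-06, 1.1e-06 and 1.8e-06), and RB1, which Saos-2 cells lack in functional form, had a difference of -5.93 (adjusted p = 9.5e-06). COL1A1, another gene of bone matrix, was 1.51 higher in Saos-2 (adjusted p = 0.00571), and SPP1, also an osteoblast marker, lay near the median of the arrays in both lines, with a difference of -0.23 (adjusted p = 0.614). Of 8 markers of blood, endothelial, epithelial and muscle cells, 2 had a mean log2 signal of at least 6, the epithelial genes KRT8 and EPCAM. EPCAM stood at 9.45 and 9.59 in Saos-2 and at 3.26 and 3.43 in MG-63. The mean signals of the 8 markers ranged from 2.49 to 7.55, with PECAM1, CDH5, MYOD1 and MYH3 below the median of the arrays, and the part of such cells in the line differences was not tested.

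**Figure D1:**
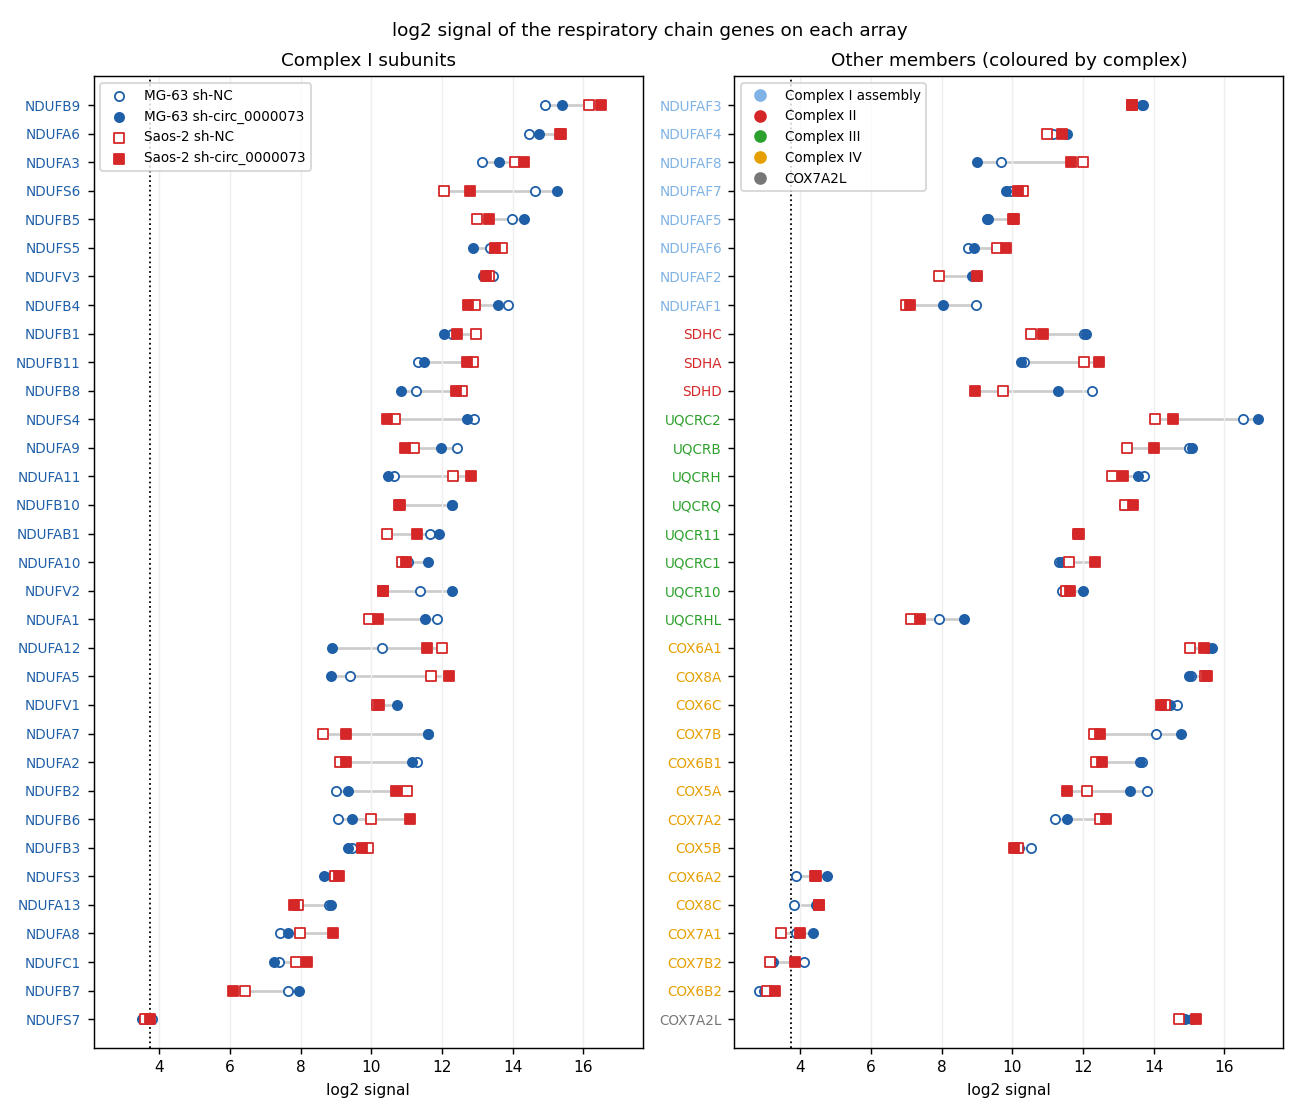
Deposited log2 signal (horizontal axis) of each respiratory chain gene on the 4 arrays, with complex I subunits on the left and the other genes on the right, coloured by complex, and a dotted line at the median of the arrays. Circles are MG-63, squares Saos-2, open symbols sh-NC and filled ones sh-circ_0000073, and 6 genes lie near the dotted line while the other 60 lie to the right of it.

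Few of the genes were past 1.5-fold with sh-circ_0000073 in either line. In MG-63, 7 of the 66 genes were higher (10.6%) and 5 lower (7.58%), where 8.93% and 7.18% of all probe sets, and 14% and 11.4% of those with a mean log2 signal of at least 6, were past the same size. In Saos-2, 9 genes were higher (13.6%) and 1 was lower (1.52%), against 8.91% and 5.22% of all probe sets and 15.7% and 8.45% of the brighter ones. The median change of the 66 genes was -0.02 in MG-63 and 0.12 in Saos-2, beside 0.02 and 0.06 over all probe sets and 0.05 and 0.12 over the brighter ones. In both lines together 1 gene was higher (NDUFS6) and 1 was lower (SDHD), each 1.52% of the genes, where 1.73% and 1.23% of all probe sets and 3.99% and 2.94% of the brighter ones were past 1.5-fold in both lines. Of the 60 genes with a mean log2 signal of at least 6, 8.33% were higher and 6.67% lower in MG-63. In Saos-2 these shares were 13.3% and 1.67%, and in both lines together 1.67% each. Each of these shares was below that of the brighter probe sets, a gap that was not tested.

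No gene passed the test over both lines. limma, with line and hairpin as terms, called 0 of the 66 genes and 0% of all 36176 probe sets (adjusted p under 0.05). Under an unadjusted p of 0.05 were 7 genes (10.6%) and 2628 probe sets (7.26%). Of those with a mean log2 signal of at least 6, 10% of the 60 genes and 12.7% of the probe sets were under it. The fit had 1 residual degree of freedom per probe set before its spread was shared across probe sets. The 7 genes were SDHD and NDUFA12 with lower signals, and NDUFS6, NDUFB6, NDUFB9, UQCRC2 and COX7A1 with higher ones. Of these, COX7A1 lay near the median of the arrays, with a mean log2 signal of 3.92. Pearson's r between the changes in the 2 lines was 0.32 over the 66 genes (Spearman's rho 0.32) and 0.17 over all probe sets. With a mean log2 signal of at least 6, r was 0.41 over the 60 genes and 0.29 over the probe sets. These values describe genes that share the same 4 arrays. The change lay above 0 in both lines for 25 genes (37.9%, beside 30.8% of all probe sets and 36.3% of the brighter ones) and below 0 in both for 18 (27.3%, beside 21.1% and 21.6%). It stayed within 1.2-fold in both lines for 17 genes (25.8%, beside 31.7% and 19.3%).

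**Figure D2:**
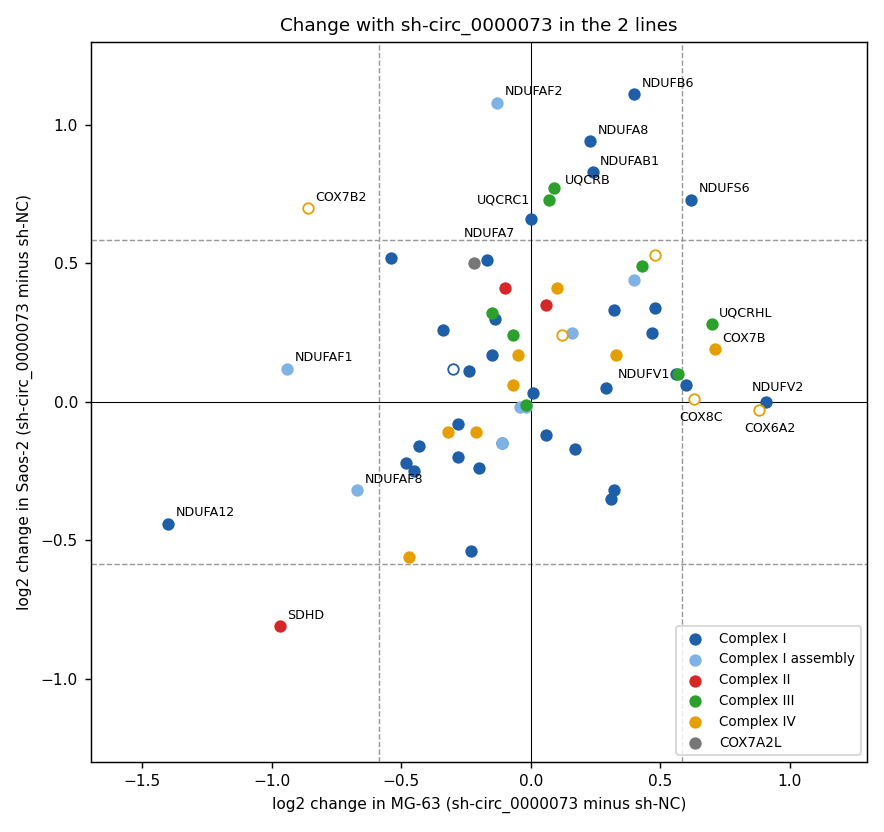
Log2 change with sh-circ_0000073 in MG-63 (horizontal axis) and Saos-2 (vertical axis), 1 point per gene, coloured by complex and open where the mean log2 signal was under 6, with dashed lines at 1.5-fold. SDHD alone lies in the lower left corner and NDUFS6 alone in the upper right one, and most points lie inside the dashed box.

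Complex II held the only gene past 1.5-fold downward in both lines. SDHD encodes a membrane anchor of succinate dehydrogenase that helps bind haem and ubiquinone, and is known as a tumour suppressor in paraganglioma. Its log2 signals were 12.27, 11.30, 9.75 and 8.94. In each line the array with sh-circ_0000073 was the lower one, and both Saos-2 arrays lay below both MG-63 arrays. The change was -0.97 in MG-63 (1.96-fold lower) and -0.81 in Saos-2 (1.75-fold lower), and their mean of -0.89 had an SE of 0.26, which did not pass the test (limma, unadjusted p = 0.0103, adjusted p = 0.61). SDHC, the other membrane anchor, had signals of 12.03, 12.09, 10.53 and 10.88, and SDHA, the flavoprotein that oxidises succinate, had 10.34, 10.24, 12.04 and 12.45. Neither was past 1.5-fold, with changes of 0.06 and 0.35 for SDHC and -0.10 and 0.41 for SDHA, so that in each line the changes of the anchors had opposite signs.

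SDHD lies on chromosome 11 of GRCh38.p14, from base 112086873 to base 112095794 on the plus strand. TIMM8B, which encodes a small carrier of proteins across the space between the mitochondrial membranes, lies head to head with it and ends its gene interval at base 112086756, so that the stretch between the starts is short. TIMM8B, chosen after its values were seen, had signals of 9.47, 9.66, 10.58 and 11.00, changes of 0.19 and 0.42, and thus did not share the lower signals of its neighbour. The stretch between the genes is shown because it lies upstream of both, at chr11:112086757-112086872, plus strand, from RefSeq's GRCh38.p14, with capitals for letters of the NRF1 motif (GCGCANGCG, overlapping on both strands, 110 and 109 bases before the SDHD start) and of the ETS motif bound by GABPA (CCGGAAG, on the opposite strand, 77 bases before the start).
SDHD: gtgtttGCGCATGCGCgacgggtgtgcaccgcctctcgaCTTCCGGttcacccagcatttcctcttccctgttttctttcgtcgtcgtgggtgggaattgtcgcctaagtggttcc

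Complex I had 33 subunits on the arrays. The MG-63 arrays had 3 of them higher (9.09%), 1 lower (3.03%) and 29 neither, with a median change of 0.00. The Saos-2 arrays had 5 higher, 0 lower and 28 neither, with a median of 0.06. NDUFS6, a zinc-binding subunit of the NADH-oxidising module, was higher in both lines. Its log2 signals were 14.63, 15.25, 12.06 and 12.79. The array with sh-circ_0000073 was the higher one in each line, and the lines did not overlap. The change was 0.62 in MG-63 (1.54-fold) and 0.73 in Saos-2 (1.66-fold), with a mean of 0.68 and an SE of 0.21 (limma, unadjusted p = 0.0134, adjusted p = 0.614). The MG-63 value lay just past the fold threshold and came to 0.58 and 0.52, just short of it, with the arrays centred on their medians and with quantile normalization. NDUFS6 lies on chromosome 5, from base 1801407 to base 1816048 on the plus strand, and the 150 bases before its start at chr5:1801257-1801406 (GRCh38.p14) are shown because they hold the NRF1 letters, in capitals, 46 bases before the start.
NDUFS6: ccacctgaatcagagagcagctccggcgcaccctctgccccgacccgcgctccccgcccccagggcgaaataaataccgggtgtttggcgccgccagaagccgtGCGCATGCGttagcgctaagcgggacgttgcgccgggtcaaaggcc

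NDUFA12 had the lowest change of the 66 genes. It is an accessory subunit of the matrix arm, built in late in assembly in the place that its paralog NDUFAF2 holds before. Its signals were 10.29, 8.89, 12.01 and 11.57. Both Saos-2 arrays were above both MG-63 arrays, and in each line the array with sh-circ_0000073 was lower, with a change of -1.40 in MG-63 (2.64-fold) and -0.44 in Saos-2 (1.36-fold, under the threshold). The mean of -0.92 had an SE of 0.31 (limma, unadjusted p = 0.0201, adjusted p = 0.63). Another NDUFA12 probe set near the median of the arrays read 3.25, 4.08, 4.76 and 4.04, and averaging over both left a change of -0.29 in MG-63. NDUFAF2 read 9.00, 8.87, 7.93 and 9.01, a change of -0.13 in MG-63 and of 1.08 in Saos-2 (2.11-fold), so that the Saos-2 array with sh-NC lay below the other 3. NDUFA12 lies on the minus strand of chromosome 12, from base 94971333 to base 95003697, and the 150 bases before its start at chr12:95003698-95003847 (GRCh38.p14) are shown on the gene's strand for comparison with the pair above, with the NRF1 letters in capitals 116 bases before the start.
NDUFA12: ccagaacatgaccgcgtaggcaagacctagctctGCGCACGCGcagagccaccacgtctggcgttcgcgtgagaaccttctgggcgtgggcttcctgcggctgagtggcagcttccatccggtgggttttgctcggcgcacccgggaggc

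The other complex I subunits past 1.5-fold were so in 1 line each. NDUFV1, which binds NADH and flavin mononucleotide, and NDUFV2, its iron-sulfur partner, form the tip where electrons enter complex I. NDUFV1 read 10.12, 10.72, 10.15 and 10.21, and NDUFV2 read 11.37, 12.28, 10.33 and 10.33. In MG-63 both were higher, by 0.60 (1.52-fold) and 0.91 (1.88-fold), with changes of 0.06 and 0.00 in Saos-2. With the arrays centred on their medians or quantile normalized, the MG-63 value of NDUFV1 was 0.56, short of the threshold. NDUFV3, the accessory member of this family, had changes of -0.28 and -0.08.

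In Saos-2 alone, 4 accessory subunits were higher. NDUFB6, in the membrane arm, read 9.06, 9.46, 9.99 and 11.10, the highest change in that line at 1.11 (2.16-fold) beside 0.40 in MG-63. NDUFA8 read 7.42, 7.65, 7.97 and 8.91, a change of 0.94 in Saos-2 (1.92-fold) and 0.23 in MG-63. NDUFAB1, the acyl carrier protein that also serves mitochondrial fatty acid synthesis and iron-sulfur cluster assembly, read 11.67, 11.91, 10.45 and 11.28, a change of 0.83 in Saos-2 (1.78-fold) and 0.24 in MG-63. NDUFA7, in the matrix arm, read 11.59, 11.59, 8.63 and 9.29, a change of 0.66 in Saos-2 (1.58-fold; 0.55 with quantile normalization) and 0.00 in MG-63. These 4 genes were past 1.5-fold in Saos-2 only, and whether the changes of the lines differ could not be tested, since 4 arrays leave no residual degree of freedom for it.

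The lowest mean changes in complex I after NDUFA12 were those of NDUFB1, a small membrane subunit (-0.39), and, with equal means of -0.35, NDUFA9, an accessory subunit near the ubiquinone site, and NDUFS5, an accessory subunit on the side of the intermembrane space. NDUFB1 read 12.29, 12.06, 12.97 and 12.43 (changes of -0.23 and -0.54), and NDUFA9 read 12.41, 11.96, 11.21 and 10.96 (-0.45 and -0.25). NDUFS5 read 13.36, 12.88, 13.71 and 13.49 (-0.48 and -0.22). All of them stayed within 1.5-fold in each line, although the Saos-2 change of NDUFB1 came to -0.69 with quantile normalization. By name family, the 13 NDUFA genes had median changes of 0.00 and 0.25, the 11 NDUFB genes 0.17 and -0.16, the 5 NDUFS genes -0.24 and 0.11, and the 3 NDUFV genes 0.60 and 0.00.

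The 8 complex I assembly factors, which help build the complex and leave it, had median changes of -0.08 in MG-63 and 0.05 in Saos-2. NDUFAF1, part of the complex that assembles the membrane arm, read 8.97, 8.03, 6.98 and 7.10 and was lower in MG-63, with changes of -0.94 (1.92-fold) and 0.12. NDUFAF8, the partner of NDUFAF5, read 9.67, 9.00, 11.99 and 11.67 and was lower in MG-63, with changes of -0.67 (1.59-fold) and -0.32. NDUFAF5, which modifies NDUFS7, read 9.31, 9.27, 10.04 and 10.02, so that its hairpin changes were -0.04 and -0.02. NDUFAF4 read 11.15, 11.55, 10.97 and 11.41, with like changes of 0.40 and 0.44, both under the threshold. The other factors, NDUFAF3, NDUFAF6 and NDUFAF7, had changes between -0.15 and 0.25 in either line.

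Complex III held 8 genes, of which 1 was higher in MG-63 (12.5%) and 2 were higher in Saos-2 (25%), with none lower. The shares higher were 8.93% and 8.91% of all probe sets, and 14% and 15.7% of the brighter ones. In Saos-2, 7 of the 8 changes lay above 0, with a median of 0.30, and in MG-63 5 did, with a median of 0.08. Of all 36176 probe sets, 20415 lay above 0 in Saos-2 and 18856 in MG-63, and of the 12091 brighter ones 7310 and 6467. UQCRB, a subunit at the ubiquinone-reducing site, read 15.01, 15.10, 13.24 and 14.01, a change of 0.77 in Saos-2 (1.71-fold) and 0.09 in MG-63. UQCRC1, a core protein of the matrix side, read 11.31, 11.38, 11.60 and 12.33, a change of 0.73 in Saos-2 (1.66-fold) and 0.07 in MG-63. UQCRC2, the other core protein, read 16.54, 16.97, 14.05 and 14.54, and its changes of 0.43 and 0.49 were under the threshold but much alike (mean 0.46, SE 0.18, limma unadjusted p = 0.0323, adjusted p = 0.659).

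UQCRH, the hinge protein between cytochrome c1 and cytochrome c, has a near-identical copy without introns, UQCRHL, at another place on chromosome 1. UQCRHL read 7.92, 8.62, 7.12 and 7.40, a change of 0.70 in MG-63 (1.62-fold) and 0.28 in Saos-2, and UQCRH read 13.72, 13.57, 12.81 and 13.13, changes of -0.15 and 0.32. Because probes of the copy can bind transcripts of UQCRH, the UQCRHL value is uncertain. UQCR11 read 11.85, 11.83, 11.88 and 11.87, the narrowest range of the complex over the 4 arrays, and UQCRQ read 13.24, 13.17, 13.18 and 13.42. UQCR10 read 11.42, 11.99, 11.53 and 11.63, and its change of 0.57 in MG-63 lay just inside the threshold.

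Complex IV held 13 genes, of which MG-63 had 3 higher (23.1%) and 1 lower (7.69%) and Saos-2 had 1 higher (7.69%). The same shares of all probe sets were 8.93%, 7.18% and 8.91%, and of the brighter ones 14%, 11.4% and 15.7%. Of the calls in complex IV, 1 came from a gene with a mean log2 signal of at least 6. COX7B, a small subunit of the complex, read 14.08, 14.79, 12.30 and 12.49, a change of 0.71 in MG-63 (1.64-fold; 0.58, just short of the threshold, with quantile normalization) and 0.19 in Saos-2. COX5A had the lowest mean change of the complex. It encodes a matrix-side subunit and read 13.80, 13.33, 12.12 and 11.56, with changes of -0.47 and -0.56, both short of 1.5-fold as deposited (limma, unadjusted p = 0.0549, adjusted p = 0.69). Centring and quantile normalization put its Saos-2 change past the threshold, at -0.60 and -0.69. COX5B, which binds zinc, read 10.52, 10.20, 10.15 and 10.04, and COX6C read 14.67, 14.46, 14.33 and 14.22. Both had lower signals with sh-circ_0000073 in each line, with changes from -0.32 to -0.11, under the threshold.

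Complex IV has pairs of subunits in which 1 form is used by most tissues and the other by muscle or testis, and the arrays showed signal for the common forms. COX6A1 read 15.55, 15.65, 15.03 and 15.44, and its heart and muscle form COX6A2 read 3.88, 4.76, 4.44 and 4.41. COX7A2 read 11.22, 11.55, 12.48 and 12.65, and its heart and muscle form COX7A1 read 3.88, 4.36, 3.46 and 3.99. COX6B1, COX7B and COX8A had mean log2 signals of 13.05, 13.42 and 15.26, where their testis forms COX6B2, COX7B2 and COX8C had 3.04, 3.58 and 4.33. Signals of different probe sets are not to scale with each other, but each of these 5 rare forms lay near the median of the arrays in both lines. The calls of COX6A2 (0.88) and COX8C (0.63) in MG-63 and of COX7B2 (-0.86 in MG-63 and 0.70 in Saos-2) were thus changes at signals near the median of the arrays. COX6A1 has a bright pseudogene, COX6A1P2, which read 15.00, 15.36, 14.71 and 15.20, and transcripts of near-identical copies cannot be told apart.

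NDUFA4 and its paralog NDUFA4L2, once assigned to complex I and now to complex IV, are named COXFA4 and COXFA4L2 in the annotation. They lie outside the rule and were looked up after values were seen. COXFA4 read 14.65, 14.88, 15.45 and 15.73, and COXFA4L2, its low-oxygen form, read 3.29, 3.44, 2.77 and 3.33. Neither was past 1.5-fold, and COXFA4L2 stayed below the median of the arrays. COX7A2L read 15.10, 14.88, 14.71 and 15.21, changes of -0.22 and 0.50.

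Compared by complex, the medians lay close together in MG-63 and spread a little more in Saos-2. They were 0.00, -0.10, 0.08 and 0.10 for complexes I, II, III and IV in MG-63. In Saos-2 they were 0.06, 0.35, 0.30 and 0.17. The median of complex II describes 3 genes that did not move together. With the 8 complex IV genes with a mean log2 signal of at least 6, its median was -0.06 in MG-63 beside 0.12 in Saos-2. The order of the complexes in MG-63 thus depended on the dim genes. Genes of a complex were measured on the same arrays and are not replicates, so these medians carry no test.

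**Figure D3:**
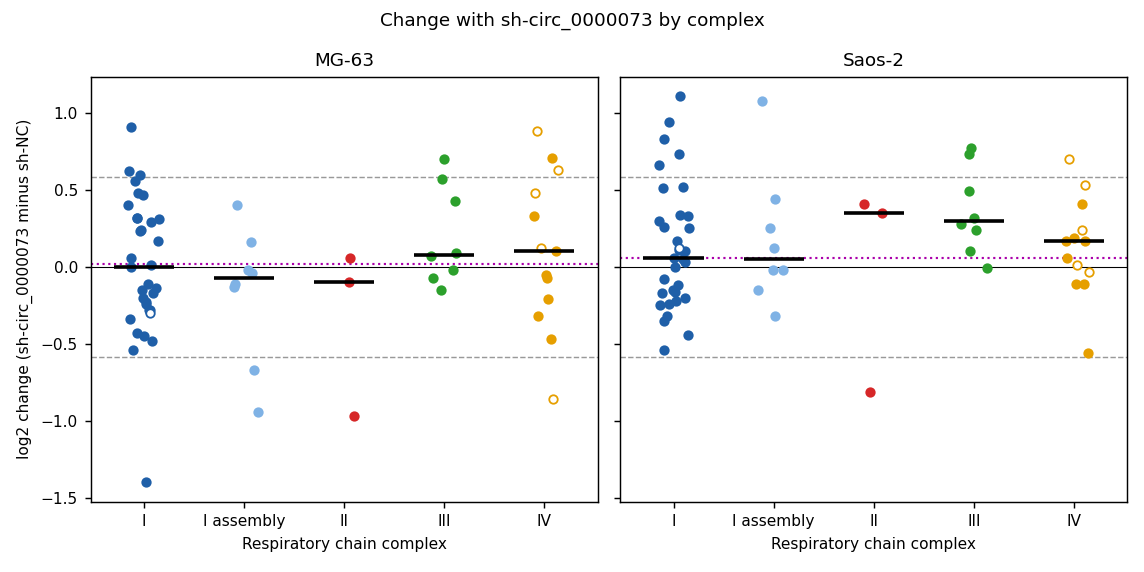
Log2 change with sh-circ_0000073 of each gene (points, open where the mean log2 signal was under 6) by complex in MG-63 (left) and Saos-2 (right), with the median of each complex as a black bar, the median of all probe sets as a purple dotted line and 1.5-fold as dashed lines. The medians lie between -0.10 and 0.35, inside the dashed lines in both lines.

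The lines differed from each other far more than the arms of the knockdown did. Over the 66 genes the difference Saos-2 minus MG-63 had an SD of 1.29 on the log2 scale. The SD of the hairpin change was 0.45 in MG-63 and 0.39 in Saos-2. Over all probe sets these SDs were 1.39, 0.45 and 0.43. With a mean log2 signal of at least 6 they were 2.23, 0.57 and 0.55, beside 1.35, 0.43 and 0.40 for the 60 genes. The line term of the same limma fit called 35 genes (53%), 13 higher and 22 lower in Saos-2, where it called 25.7% of all probe sets (11.9% higher and 13.7% lower). Of the 60 genes with a mean log2 signal of at least 6 it called 58.3%, beside 55.1% of all probe sets at that level (25.9% higher and 29.2% lower), a share near the background. The arrays of the lines did not overlap for 55 genes (83.3%, background 59%, or 79.5% at that level), and the mean difference between lines was larger than the mean hairpin change over both lines for 57 (86.4%, background 69%, or 83.8%). Of the 35 calls, 28 were kept with every alternative scaling, filter and limma setting, and none of the 35 turned its direction.

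The genes of 1 complex lay on both sides. In complex I, 23 of 33 subunits (69.7%) were called, 10 higher and 13 lower in Saos-2. The background was 25.7% of all probe sets and 55.1% of those with a mean log2 signal of at least 6. Of the 33 subunits, 32 had such a signal. NDUFA5, an accessory subunit of the matrix arm, was the highest in Saos-2, with signals of 9.40, 8.86, 11.68 and 12.20, a difference of 2.81 (SE 0.32, 7.01-fold, limma adjusted p = 0.000537). Its pseudogene NDUFA5P11 read 6.24, 5.93, 7.60 and 8.15, the same order of the arrays. Another pseudogene, NDUFA5P12, read 5.25, 5.33, 6.88 and 7.79, also higher in Saos-2 but with the MG-63 arrays in the other order. NDUFA7, in the same arm, was the lowest in Saos-2, at -2.63 (SE 0.29, 6.19-fold lower, adjusted p = 0.000427), with signals as given above. NDUFA12 was 2.20 higher (SE 0.31, adjusted p = 0.00151) and NDUFS6 had a difference of -2.52 (SE 0.21, 5.72-fold lower, adjusted p = 0.000108). NDUFA11, a membrane subunit, read 10.64, 10.47, 12.31 and 12.82 and was 2.01 higher in Saos-2 (SE 0.27, adjusted p = 0.00125). The assembly factor NDUFAF8 was 2.50 higher (SE 0.27, 5.64-fold, adjusted p = 0.000371) and NDUFAF1 differed by -1.46 (SE 0.34, adjusted p = 0.0168).

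All 3 complex II genes were called between the lines, and the catalytic subunit went the other way from the anchors. The background share called was 25.7% of all probe sets and 55.1% of the brighter ones. SDHA was 1.96 higher in Saos-2 on the log2 scale (SE 0.27, 3.88-fold, limma adjusted p = 0.00122). SDHD had a difference of -2.44 (SE 0.26, 5.43-fold lower, adjusted p = 0.000371), and SDHC of -1.36 (SE 0.25, 2.56-fold lower, adjusted p = 0.00586). The SDHD signal of Saos-2 with sh-NC (9.75) was thus already below that of MG-63 with sh-circ_0000073 (11.30).

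In complex III, 3 of 8 genes (37.5%, background 25.7%, or 55.1% of the brighter ones) were called, all lower in Saos-2. Their differences were -2.46 for UQCRC2 (SE 0.18, 5.50-fold, limma adjusted p = 5.1e-05), -1.43 for UQCRB (SE 0.23, adjusted p = 0.00295) and -1.01 for UQCRHL (SE 0.29, adjusted p = 0.0405, lost in 2 of the alternatives). The core proteins UQCRC1 and UQCRC2 form a dimer in the complex, and UQCRC1 was 0.62 higher in Saos-2 without a call (adjusted p = 0.154). In complex IV, 4 of 13 were called (30.8%), with COX7B (-2.04), COX5A (-1.73) and COX6B1 (-1.18) lower and COX7A2 (1.18) higher in Saos-2. Of the 13 genes, 8 had a mean log2 signal of at least 6. NDUFS4, an accessory subunit whose loss causes Leigh syndrome, read 12.90, 12.70, 10.68 and 10.44, a line difference of -2.24 (SE 0.24, adjusted p = 0.000397), with hairpin changes of -0.20 and -0.24. Each of these line values rests on 2 arrays of a line that differ in hairpin, and line and culture cannot be told apart.

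**Figure D4:**
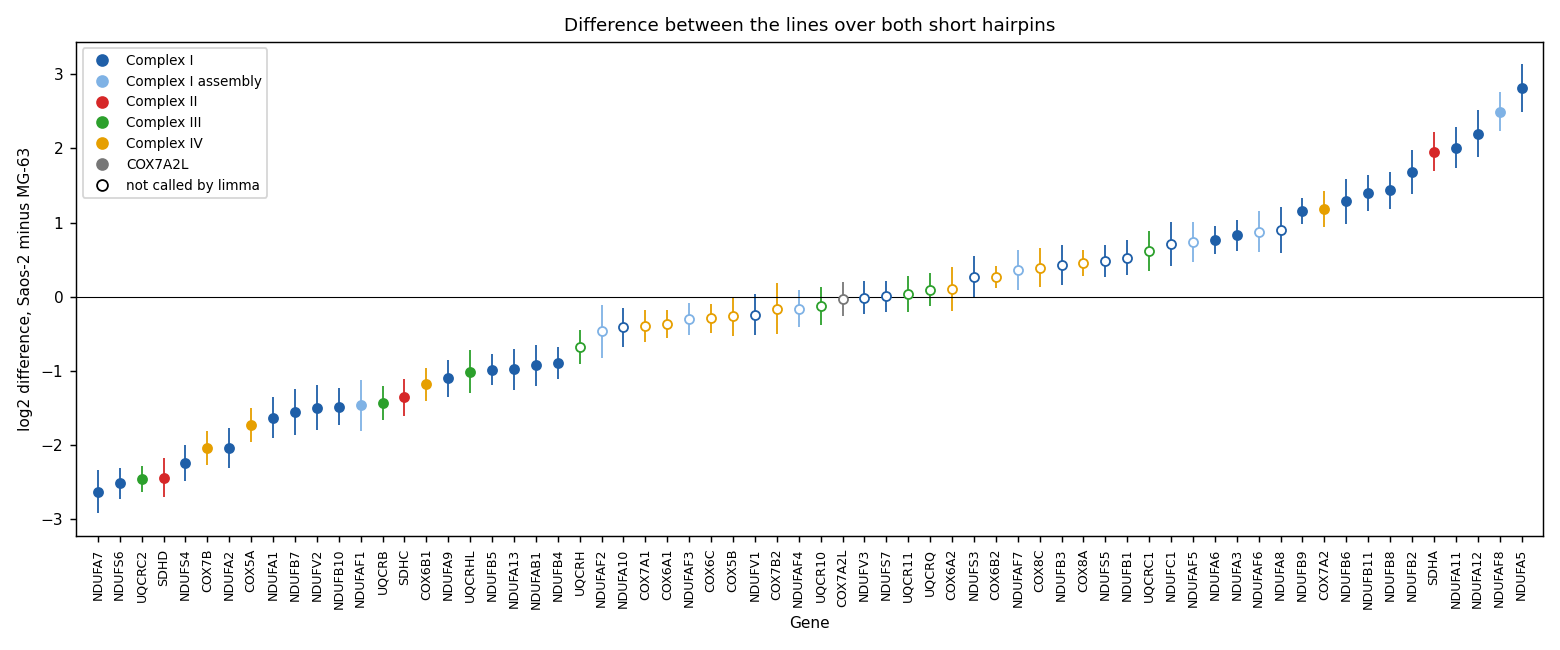
Difference in log2 signal between Saos-2 and MG-63 over both hairpins for each gene, ordered by size, with the SE of the limma fit as bars and open points where the adjusted p was not under 0.05. The differences run from -2.63 (NDUFA7) to 2.81 (NDUFA5), with 22 called genes below 0 and 13 above.

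Lists of partner genes outside the rule were counted in the same way, against the same background. CYCS, cytochrome c itself, read 13.94, 14.34, 14.94 and 15.59 and was higher in Saos-2 with sh-circ_0000073 by 0.65 (1.57-fold), with 0.40 in MG-63, while CYC1, COX4I1 and COX4I2 stayed within 1.5-fold. Of 19 measured genes of the ATP synthase, which uses the proton gradient, 2 were higher in MG-63 (ATP5MG and ATP5MJ). That was 10.5%, beside 8.93% of all probe sets and 14% of the brighter ones. None was past 1.5-fold in Saos-2. ATP5MG, a membrane subunit, read 13.71, 14.48, 15.08 and 15.60. Of the 13 subunits from mitochondrial DNA none was analysed here.

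Of 28 measured complex IV assembly genes, Saos-2 had 8 higher and 0 lower, with a median change of 0.16. The 8 were 28.6%, beside 8.91% of all probe sets and 15.7% of the brighter ones. MG-63 had 3 higher (10.7%) and 1 lower (3.57%), with a median of 0.06. The background in MG-63 was 8.93% and 7.18% of all probe sets, and 14% and 11.4% of the brighter ones. COX20, a chaperone of the mitochondrially encoded subunit COX2, was higher in both lines and read 13.02, 13.89, 10.42 and 11.03 (changes of 0.87 and 0.61). COA3 read 10.09, 10.20, 8.21 and 9.20, and LRPPRC, which stabilises mitochondrial messenger RNAs, read 13.34, 13.40, 13.06 and 13.96, both past 1.5-fold in Saos-2 only. Of 10 further complex I assembly genes 1 was lower in MG-63 and 1 higher in Saos-2 (10% each). Of 9 complex III assembly genes 1 was higher in Saos-2 (11.1%). Of the 4 complex II assembly genes, SDHAF4, which helps mature SDHA, read 5.89, 6.73, 6.25 and 5.11, past 1.5-fold upward in MG-63 (0.84) and downward in Saos-2 (-1.14), at a signal of about 6.

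Regulators of the chain held the largest changes among the partner lists. TFAM, which packages and transcribes mitochondrial DNA, read 11.85, 10.76, 13.40 and 11.55. It was lower with sh-circ_0000073 in both lines, with changes of -1.09 (2.13-fold) and -1.85 (3.61-fold), a mean of -1.47 and an SE of 0.28 (limma, unadjusted p = 0.000923, adjusted p = 0.438). PPRC1, a coactivator of the PGC-1 family that acts through NRF1, read 9.01, 10.51, 8.78 and 9.49 and was higher in both lines, 2.83-fold in MG-63 and 1.64-fold in Saos-2. GABPA, the DNA-binding part of the ETS factor NRF2/GABP, read 10.07, 9.19, 9.96 and 10.11, a change of -0.88 in MG-63 (1.84-fold) and 0.15 in Saos-2, and NRF1 itself read 7.65, 7.86, 7.20 and 7.03, within 1.5-fold. The transcription factor TFB2M and the mitochondrial RNA polymerase POLRMT were higher in Saos-2, by 0.93 and 0.91, with 0.09 and 0.41 in MG-63. Of 14 measured regulators, MG-63 had 1 higher and 3 lower, and Saos-2 had 4 higher and 1 lower. In the citric acid cycle, 2 of 11 genes (18.2%) were higher in MG-63, beside the same 8.93% and 14%, and none was past 1.5-fold in Saos-2. Citrate synthase (CS), which opens the cycle, read 13.35, 14.33, 14.46 and 15.04 (changes of 0.98 and 0.58), and SUCLG2 read 8.15, 9.15, 4.84 and 5.15. limma called none of the genes of these lists for the hairpin, with 1 or 2 at an unadjusted p under 0.05 in each of 5 lists and 0 in the others.

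**Figure D5:**
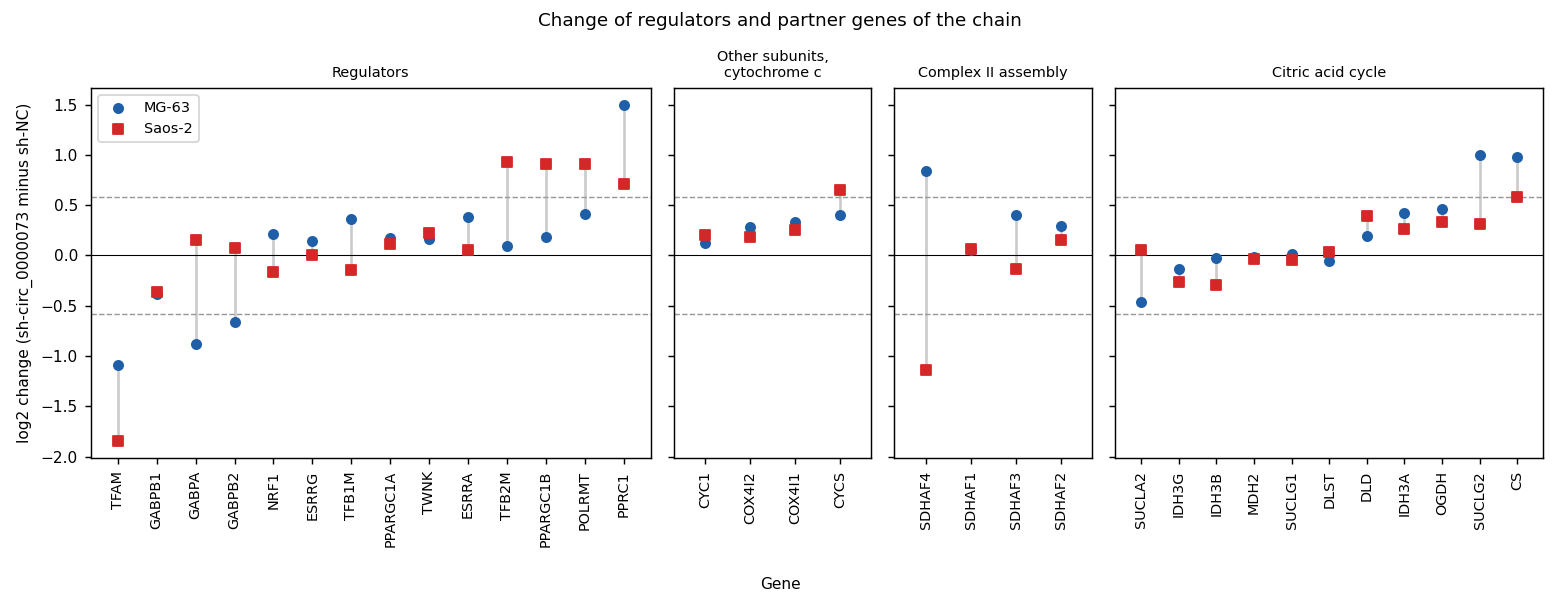
Log2 change with sh-circ_0000073 in MG-63 (circles) and Saos-2 (squares), joined for each gene, for regulators of respiratory gene transcription, subunits outside the rule with cytochrome c, complex II assembly genes and the citric acid cycle, with dashed lines at 1.5-fold. TFAM lies below and PPRC1 above the dashed lines in both lines, and SDHAF4 lies beyond them on opposite sides.

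NRF1, GABP and YY1 are known to bind promoters of many respiratory genes, and the letters of their motifs were counted in RefSeq's windows from 250 bases before to 50 bases after each gene's start (GRCh38.p14), on both strands. Of the 66 genes 57 had a window. The NRF1 letters GCGCANGCG stood in 18 of them (31.6%), where 9.02% of all 27305 genes with a window and 18.3% of the 7636 with a mean log2 signal of at least 6 held them. The ETS letters CCGGAAG stood in 14 (24.6%), beside 12.2% and 24.0%, and the YY1 letters AAGATGGCG in 8 (14.0%), beside 2.14% and 5.33%. SDHD, NDUFS6 and NDUFA12, the genes shown above, all held the NRF1 letters, although their signals with sh-circ_0000073 went in different directions. The NDUFS6 stretch was shown because of these letters, so their presence in all the stretches shown is not a result. The 18 genes with the NRF1 letters had median changes of -0.03 and 0.19, and the 39 without had -0.07 and 0.06. For the ETS letters the medians were -0.07 and 0.09 with them and -0.02 and 0.10 without, and for the YY1 letters -0.25 and -0.06 with them and -0.04 and 0.11 without. A match of letters is a description of the sequence and not a measured binding site.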

How the data were processed

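Total RNA of MG-63 and Saos-2 cells was hybridised to 4 Affymetrix arrays with the GeneChip WT Pico Reagent Kit, 1 array per condition. The authors deposited 1 log2 signal per probe set and array, with 2 decimals, made with Affymetrix Expression Console per the submitters' processing notes (its background correction, its summarisation and its version: not given in the sources used here). Signals were used as deposited, as log2 signals. The number of arrays limits the precision, and no depth or detection call was used. Of 135750 probe sets, 36176 carried 1 gene symbol in the platform annotation, 1119 several and 98455 none. RefSeq's GRCh38.p14 gene table updated 623 symbols, and its promoter windows gave the sequences. The build behind the array design was not used.

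Within a line, a gene was counted when past 1.5-fold, with no test. The study's methods name this size together with a P under 0.05, which was not applied here. Line and hairpin were fitted over all 4 arrays with limma 3.58.1 (R 4.3.3) on all probe sets with 1 symbol (eBayes with a mean-variance trend, Benjamini-Hochberg, threshold 0.05), and its line term gave the difference between lines. Residual variances of 0, which values of 2 decimals can give, were offset by limma. The fit was run on simulated data in which the raised genes changed by 2 or 4 on the log2 scale. All hairpin changes of the respiratory chain genes were smaller, so that run does not show whether limma could call them. Alternatives were the mean over the probe sets of a gene, median centring, quantile normalization, a log2 signal of at least 6, a 2-fold threshold, subunits alone, and other limma settings.

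The members, lists, named genes and alternatives were chosen with earlier results of these data known. Named were all SDH genes, every gene past 1.5-fold in either line, the 3 highest and 3 lowest mean changes in complexes I, III and IV and the complex I assembly factors, the 3 brightest and 3 dimmest genes, the 4 largest line differences in each direction, and the tissue forms of complex IV. Of the other lists, genes past 1.5-fold in both lines and up to 3 with the largest mean change were named. TIMM8B, COXFA4 and COXFA4L2, and some genes given for context, were chosen after their values were seen. Left out were 103 pseudogene probe sets and 7 antisense or divergent ones. Some items are not reported here. Figures were drawn with Python 3.11.15.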

Additional observations from a re-analysis of the deposited data

Results flagged for a closer look

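For 2 genes the arrays with sh-circ_0000073 moved past 1.5-fold in opposite directions in the lines. COX7B2, the testis form of a complex IV subunit, changed by -0.86 on the log2 scale in MG-63 but by 0.70 in Saos-2, at signals between 3.15 and 4.09 near the median of the arrays. SDHAF4, an assembly factor of complex II, changed by 0.84 in MG-63 but by -1.14 in Saos-2, at signals between 5.11 and 6.73. The difference between the lines was not tested for either gene, because 4 arrays in 4 conditions leave no residual degree of freedom for it.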

How the results depend on the processing

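The labels carry no replicate numbers, and the limma fit paired the arrays by line; without the other term it called 0 probe sets for the hairpin, with 360 in place of 2628 under an unadjusted p of 0.05. With quantile normalization, MG-63 had 4 higher genes in place of 7, Saos-2 had 3 lower genes in place of 1, and 20 in place of 13 were called higher in Saos-2 than in MG-63. The median changes of complexes II and IV in Saos-2 became 0.23 and 0.058 (from 0.35 and 0.17), and 2 complex I genes in MG-63 and 2 complex IV genes in Saos-2 were past 1.5-fold. With median centring, 2 genes were lower in Saos-2, and 2 complex I genes in MG-63 and 2 complex IV genes in Saos-2 were past the threshold. With a 2-fold threshold, MG-63 had 0 genes higher and 1 lower, Saos-2 had 2 higher and 0 lower, with 1 gene of complex I in each line and 0 of complexes II, III and IV. With subunits alone, 3 genes were lower in MG-63. With a mean log2 signal of at least 6, the complex IV median in MG-63 was -0.06, with 1 gene past the threshold there and 0 in Saos-2. Under centring and quantile normalization, NDUFS6 (0.58 and 0.52) and NDUFV1 (0.56 and 0.56) fell short of the threshold in MG-63 and COX5A passed it in Saos-2 (-0.60 and -0.69). Under quantile normalization alone, COX7B in MG-63 (0.58) and NDUFA7 in Saos-2 (0.55) fell short and NDUFB1 in Saos-2 (-0.69) passed it. NDUFA12 in MG-63 came to -0.29 as a mean over probe sets. SDHD stayed past 1.5-fold in both lines under each scaling. A small median also changed sign for complex I in Saos-2 with quantile normalization (0.06 to -0.03) and for all genes in MG-63 with subunits alone (-0.02 to 0.01). The other values kept within 1.5 times of a count or 0.1 of a median. limma called 0 of the 66 genes for the hairpin in all settings, and over all probe sets 27 with quantile normalization, 20 among brighter ones and 8 with robust eBayes, against 0 otherwise. Of the 35 line calls, NDUFA13, NDUFA3, NDUFA6, NDUFAB1, NDUFB4, NDUFB6 and UQCRHL were lost in 1 or more settings. No scaling moved the median of all probe sets by over 0.1. With 1 array per condition, the spread between repeats of a condition is unknown.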

Other observations

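Among the 103 pseudogene probe sets that were left out, 10 had a mean log2 signal of at least 6. UQCRFS1P1, a copy of the gene for the Rieske iron-sulfur protein of complex III, read 11.05, 11.33, 7.59 and 7.74 in the array order of the report, so that both MG-63 arrays lay above both Saos-2 arrays. COX7CP1, a copy of a complex IV gene, read 11.35, 11.34, 10.73 and 10.43 in the same order. The parent genes UQCRFS1 and COX7C were not analysed here, and the part of their transcripts in these signals was not tested. NDUFB4P12 read 9.62, 9.87, 8.91 and 8.68, beside 13.86, 13.58, 12.93 and 12.73 for NDUFB4, both higher in MG-63.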
